A study of Mus musculus with 10 samples.

Results

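The genes described here are *Prap1*, *Lrp2*, *Il13ra2*, *Gata2*, *Sox17*, *Acod1*, *Fam83a* and *Abcb5*, 8 of the 45706 genes listed in the count table. *Prap1*, *Lrp2*, *Il13ra2*, *Gata2*, *Sox17* and *Acod1* were taken as genes of the receptive uterine epithelium. *Fam83a* and *Abcb5* were taken because their counts were much lower in the mutant uteri of these same libraries, so their genotype values are a description with no test. All 8 passed the filter on low counts, which kept 25146 genes. RNA came from pregnant uteri at gestation day (GD) 3.5, after mating to wildtype males, of 5 control mice with the genotype *Arid1a* f/f and 5 mice with the genotype *Ltf* iCre/+ *Arid1a* f/f, called mutants here. Both genotypes were mature adult females of a mixed 129P2/OlaHsd, 129S1/SvImJ, 129S6/SvEvTac and C57BL/6 background that carried floxed *Arid1a*, and they differed by the *Ltf* iCre allele. That allele expresses Cre recombinase from the lactoferrin locus, which is active in the adult uterine epithelium and can also be active in myeloid cells. *Arid1a* encodes a DNA-binding subunit of the SWI/SNF chromatin remodelling complex. RNA was extracted from whole pieces of uterus, so the libraries held stroma, muscle, vessels and immune cells beside epithelium.

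Progesterone acts on the uterus through its nuclear receptor, encoded by *Pgr*. Before an embryo attaches, it holds back the estrogen-driven growth of the luminal epithelium and turns on a set of receptive genes there. The epithelial transcription factors GATA2 and SOX17 work with the receptor, and the hedgehog ligand IHH carries the signal to the stroma.

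Libraries held from 59296537 to 72702411 counts. Levels are given as CPM, the counts divided by TMM-normalised library sizes and brought to a common scale. *Arid1a* itself stood at 212.7 ± 22.9 CPM in controls and 184.9 ± 15.9 CPM in mutant uteri (SD, n = 5 each), in RNA that included cells in which Cre is not expressed. Its log2 fold change was -0.20 (SE 0.09, adjusted p = 0.201), where all adjusted p-values are from the quasi-likelihood test of edgeR, corrected over all tested genes by the Benjamini-Hochberg method. Of 12 epithelial markers, 7 were higher in mutant uteri by that test (3 to 8 with 1 uterus left out, the fewest without control replicate 2 or 3), and none was at 0 in any uterus. Their summed level was 909 to 1210.0 CPM in controls and 1308 to 2442 CPM in mutant uteri, where replicates 1 and 5 had the highest sums. These libraries cannot place a transcript in the luminal epithelium. The 8 genes did not move as 1 group, since 7 were lower on average in mutant uteri and *Prap1* was higher. The 7 include *Fam83a* and *Abcb5*, chosen for their fall, and *Il13ra2*, *Gata2* and *Sox17*, whose intervals of 2 SE crossed 0. Over all tested genes, 52.7% were higher on average, so nothing is read from the count of 7. Replicate numbers are read only as names of the uteri, and p-values set the genotype difference against the spread between uteri.

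Promoter sequences are shown for the member that rose and for a pair of members that were lower in every mutant uterus, 1 with a motif and 1 without. RefSeq entries of GRCm38.p6 were found for 6 of the 8 genes, and each window holds up to 250 bases before the annotated gene start, written 5′ to 3′ on the strand of the gene. The *Prap1* window is chr7:140093146-140093394 on the plus strand, with capitals marking a GATA site. The *Lrp2* window is chr2:69586066-69586279 on the minus strand. The *Abcb5* window is chr12:118966422-118966671 on the minus strand, with capitals marking a match to the core of a progesterone or glucocorticoid response element.
Prap1: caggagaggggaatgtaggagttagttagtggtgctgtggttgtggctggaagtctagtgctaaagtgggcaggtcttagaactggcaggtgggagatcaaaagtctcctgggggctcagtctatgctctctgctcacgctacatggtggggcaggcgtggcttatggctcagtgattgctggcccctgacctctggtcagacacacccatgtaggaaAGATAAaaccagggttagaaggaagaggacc
Lrp2: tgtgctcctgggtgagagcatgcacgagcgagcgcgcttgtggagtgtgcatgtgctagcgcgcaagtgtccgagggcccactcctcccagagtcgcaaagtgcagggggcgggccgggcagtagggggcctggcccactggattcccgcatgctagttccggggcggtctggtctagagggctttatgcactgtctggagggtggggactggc
Abcb5: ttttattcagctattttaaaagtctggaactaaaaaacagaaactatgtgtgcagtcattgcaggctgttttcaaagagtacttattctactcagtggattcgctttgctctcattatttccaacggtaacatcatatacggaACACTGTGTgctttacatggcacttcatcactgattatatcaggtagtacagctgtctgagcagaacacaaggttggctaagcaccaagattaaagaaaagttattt

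The motifs were searched on both strands and were spelled ACANNNTGT for the steroid receptor core, AGATAA for a GATA site and ACAAT for a SOX site. Of 32851 promoter windows of 250 bases, 5.84% held the steroid receptor core, 9.99% the GATA site and 27.7% the SOX site. The last base of the GATA site of *Prap1* lay 26 bases from the gene start. *Il13ra2* had a GATA site 10 bases and a SOX site 80 bases from its start, and the steroid receptor core of *Abcb5* lay 99 bases from its start. The windows of *Lrp2*, *Acod1* and *Gata2* held none of these letters. These matches describe letters only.

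*Prap1*, which encodes a proline-rich secreted protein of uterine and gut epithelium, rose in all 5 mutant uteri. The gene (ENSMUSG00000025467) lies on chromosome 7 from 140093395 to 140097200 on the plus strand of GRCm38. In controls its level was 1.01, 0.990, 1.52, 1.95 and 3.30 CPM in replicates 1 to 5. In mutant uteri it was 27.0, 21.3, 37.7, 75.2 and 257.02 CPM. The genotypes did not overlap, and replicate 5 stood far above the other mutant uteri.

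The mean of *Prap1* went from 1.75 ± 0.953 to 83.6 ± 99.2 CPM (SD, n = 5 each), a ratio of 47.7. The log2 fold change was 5.58 (SE 0.78, adjusted p = 0.00229, quasi-likelihood test), and 4.52 without mutant replicate 5. The exact permutation test (two-sided, on log2 CPM) gave p = 0.00794, the smallest that its 252 arrangements allow. *Prap1* was the only 1 of the 6 tested members with an adjusted p under 0.05, where 9.70% of all tested genes passed, 5.19% as higher and 4.51% as lower.

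The exons of *Prap1* overlap those of *Fuom*, a fucose mutarotase gene on the opposite strand, and whether reads were counted by strand is not given in the sources used here. *Fuom* rose as well, from 9.25 ± 1.15 to 25.3 ± 6.07 CPM (SD, n = 5 each, log2 fold change 1.45, adjusted p = 0.00104 by edgeR's quasi-likelihood test). Whether reads of the shared exons were given to either gene or left uncounted is not known here. The nearest tested gene on the other side, *Caly*, rose from 0.0710 ± 0.0497 to 0.663 ± 0.524 CPM (SD, n = 5 each, log2 fold change 3.18, adjusted p = 0.014 by the same test). Both neighbours passed in the direction of *Prap1*, and *Fuom* stood above *Prap1* in the control mean and below it in the mutant mean.

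**Figure D1:**
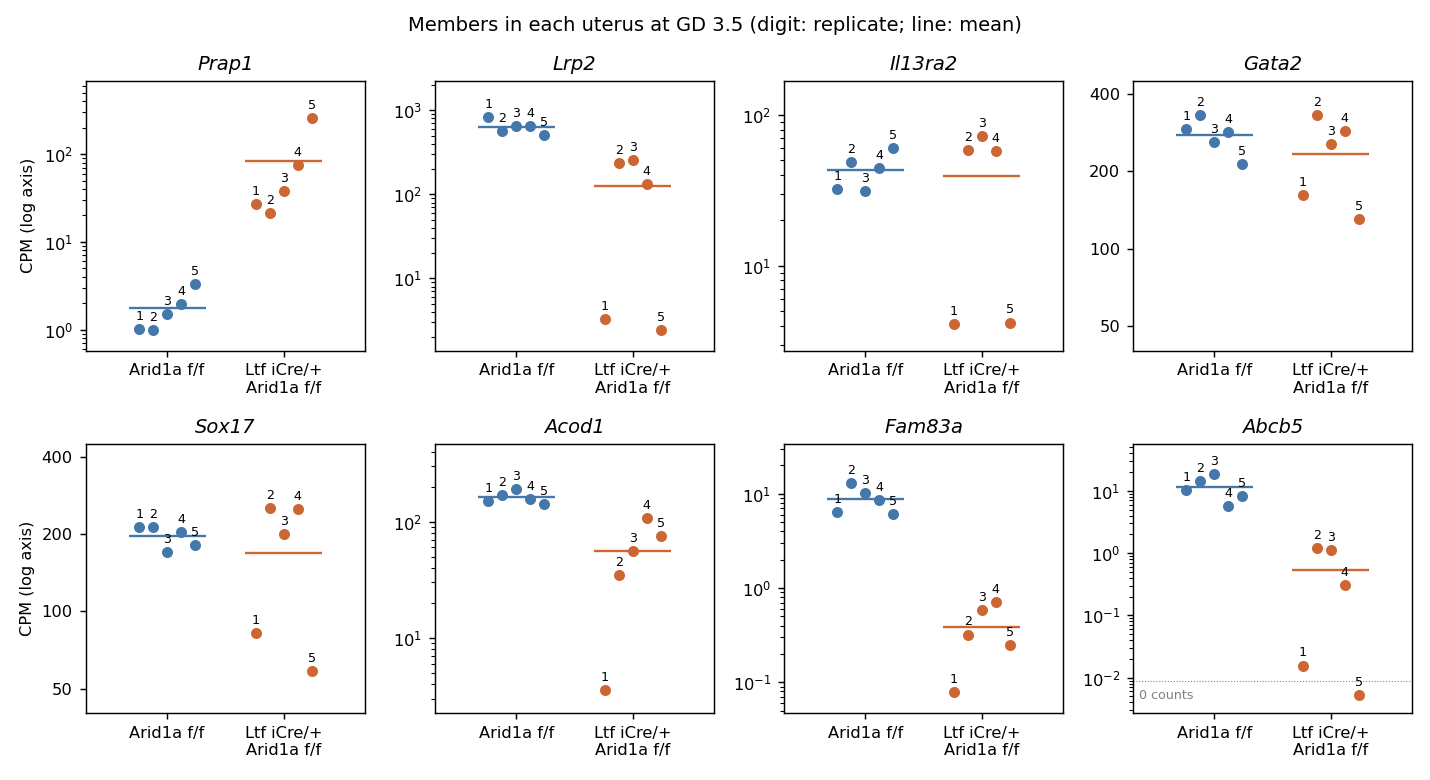
Level of each of the 8 members in CPM (log axis) in 5 control and 5 mutant uteri, with the replicate number above each point, a line at the mean and 0 counts drawn below a dotted line. Prap1 is above every control in all 5 mutant uteri, Lrp2, Acod1, Fam83a and Abcb5 are below every control in all 5, and Il13ra2, Gata2 and Sox17 are below every control in replicates 1 and 5 only.

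*Lrp2* encodes megalin, a large endocytic receptor for lipoproteins and vitamin-binding proteins, and was the member with the most reads in controls. It lies on chromosome 2 from 69424340 to 69586065 on the minus strand (ENSMUSG00000027070). Control replicates 1 to 5 had 833, 566, 643, 656 and 502 CPM. Mutant replicates 1 to 5 had 3.26, 234, 259, 133 and 2.40 CPM. All 5 lay below every control, and replicates 1 and 5 were far below the other mutants, at 0.510% and 0.375% of the control mean. In whole-uterus RNA, fewer cells of a type and less RNA per cell cannot be told apart.

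The mean of *Lrp2* in mutant uteri was 126 ± 122 CPM and that in controls 640.1 ± 124.6 CPM (SD, n = 5 each), or 19.7% of the control level. The log2 fold change of the fitted levels was -2.34 with an interval of 2 SE from -4.33 to -0.35, and it missed the threshold (unadjusted p = 0.0373, adjusted p = 0.161, quasi-likelihood test). On the scale of mean log2 CPM, in which replicates 1 and 5 count for more, the difference was -4.11, and the exact permutation test gave p = 0.00794. The SD of log2 CPM was 0.27 in controls and 3.39 in mutant uteri. The neighbours of *Lrp2* did not pass, with *Dhrs9* at a log2 fold change of 2.84 (adjusted p = 0.0528) and *Bbs5* at -0.08 (adjusted p = 0.713), both by edgeR's quasi-likelihood test.

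Genes for proteins that work with megalin gave calls in the direction of the *Lrp2* values, which themselves missed the threshold. Of 7 such genes, 3 fell and none rose, where 4.51% of all tested genes passed as lower. Their median log2 fold change was -0.44 against 0.03 over all tested genes. *Cubn*, for cubilin, the co-receptor of megalin, fell from 2.45 ± 0.180 to 0.842 ± 0.318 CPM (SD, n = 5 each, log2 fold change -1.54, adjusted p = 0.00515, quasi-likelihood test). *Myo6*, the motor of early endocytic vesicles, had a log2 fold change of -0.87 (adjusted p = 0.00161), and *Dab2*, the adaptor of the megalin tail, one of -0.44 (adjusted p = 0.0154), both by edgeR's quasi-likelihood test. All 3 passed in each fit that left out 1 uterus. Over single uteri they did not all follow *Lrp2*. In mutant replicate 5, with the lowest *Lrp2*, *Cubn* was least reduced, at -0.89 from its control mean of log2 CPM. There *Dab2* stood at -0.40 and *Myo6* at -1.14, its lowest. Among related lipoprotein receptors, *Lrp8* rose (log2 fold change 1.80, adjusted p = 0.0322) and *Vldlr* fell (-0.59, adjusted p = 0.0222) by the same test. *Lrp8* had a log2 fold change of 1.17 without mutant replicate 1 and missed the threshold when any 1 control was left out, and *Vldlr* missed it without control replicate 5.

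*Il13ra2* encodes a decoy receptor that binds interleukin-13 without signalling as the main receptor does. It lies on chromosome X from 147383476 to 147429192 on the minus strand (ENSMUSG00000031289). Controls had 32.4, 48.8, 31.2, 44.5 and 60.2 CPM. In mutants the values were 4.11, 58.7, 72.7, 57.9 and 4.21 CPM. Replicates 2, 3 and 4 lay in or above the upper control range, while replicates 1 and 5 stood at 9.46% and 9.70% of the control mean.

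With 3 uteri high and 2 low, the mean of *Il13ra2* was 39.5 ± 32.8 CPM against 43.4 ± 12.1 CPM (SD, n = 5 each). The log2 fold change was -0.14, with an interval of 2 SE from -1.51 to 1.24 (adjusted p = 0.929, quasi-likelihood test), and the exact permutation test gave p = 0.429. Without mutant replicate 1 it was 0.15, without replicate 5 it was 0.16 and without control replicate 5 it was 0.01, so its sign rested on single uteri. Of 6 genes of the interleukin-4 and interleukin-13 axis, 0 passed with edgeR's quasi-likelihood test, and 0 had an unadjusted p under 0.05 or passed with DESeq2. *Il13* was at 0 counts in 4 of the 5 uteri of each genotype and reached 0.535 CPM in mutant replicate 5 (adjusted p = 0.245). *Il13ra1*, a signalling receptor chain, had a log2 fold change of 0.39 (adjusted p = 0.28).

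*Gata2*, a zinc-finger transcription factor that acts upstream of *Pgr* in uterine epithelium and is also made in stroma and endothelium, lies on chromosome 6 from 88193891 to 88207032 on the plus strand (ENSMUSG00000015053). Controls had 292, 333, 261, 284 and 214 CPM. Mutants had 162, 333, 255, 288 and 131 CPM. The genotypes overlapped, and replicates 1 and 5 were again the lowest uteri.

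*Sox17*, an SRY-box transcription factor of uterine epithelium and of vessels, lies on chromosome 1 from 4490931 to 4497354 on the minus strand (ENSMUSG00000025902). Controls had 214, 213, 171, 204 and 181 CPM. Mutants had 82.2, 253, 201, 251 and 58.4 CPM. Replicates 2 and 4 lay above every control and replicates 1 and 5 below every control.

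Neither transcription factor passed. *Gata2* had a mean of 233.8 ± 85.3 CPM against 276.8 ± 43.5 CPM (SD, n = 5 each). The change on the log2 scale was -0.24 with an interval of 2 SE from -0.71 to 0.22 (adjusted p = 0.565, quasi-likelihood test), and its exact permutation p was 0.294. *Sox17* had a mean of 169 ± 93.0 CPM against 196.5 ± 19.6 CPM (SD, n = 5 each). The change on the log2 scale was -0.22 with an interval of 2 SE from -0.92 to 0.49 (adjusted p = 0.754), and its exact permutation p was 0.421. Without mutant replicate 5, the *Sox17* value was 0.0018. An exon of *Sox17* overlaps *Gm37587* on the opposite strand, with the same limit on strand. *Ihh*, the ligand below these factors, had 37.2 ± 4.34 CPM in controls and 37.8 ± 21.2 CPM in mutant uteri (log2 fold change 0.02, adjusted p = 0.978), and its lowest uteri were replicates 1 and 5 as well, at 14.94 and 14.96 CPM. No gene of 7 other GATA factors and FOG cofactors passed, nor of 5 other SOX factors of groups E and F, by edgeR's quasi-likelihood test. At an unadjusted p under 0.05 there were 0 and 2 genes, and with DESeq2 0 and 1. Their largest log2 fold changes were -1.01 for *Sox9* (adjusted p = 0.139), -0.81 for *Sox18* (adjusted p = 0.0722), 0.32 for *Gata1* (adjusted p = 0.676) and -0.26 for *Gata6* (adjusted p = 0.592).

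*Acod1*, also called *Irg1*, encodes the enzyme that makes itaconate from cis-aconitate. It is known as a progesterone-induced gene of the luminal epithelium and as a gene of activated macrophages. It lies on chromosome 14 from 103046977 to 103056573 on the plus strand (ENSMUSG00000022126). Controls had 149, 171, 192, 156 and 141 CPM. The mutant uteri had 3.54, 34.4, 56.0, 108 and 75.6 CPM. All 5 lay below every control, and here replicate 5 was the second highest of the mutant uteri while replicate 1 was again the lowest.

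The mean of *Acod1* was 55.6 ± 39.8 CPM against 162 ± 20.1 CPM (SD, n = 5 each), or 34.4% of the control level. The log2 fold change was -1.54 with an interval of 2 SE from -2.71 to -0.37, and it missed the threshold (unadjusted p = 0.0222, adjusted p = 0.119, quasi-likelihood test). The exact permutation test gave p = 0.00794, and without mutant replicate 1 the fit gave -1.24 (adjusted p = 0.0237). *Lrp2* and *Acod1* were the 2 of 6 tested members with every mutant uterus below every control, against 5.16% of all tested genes. *Prap1* was the 1 above, against 5.53%.

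Myeloid markers stood beside *Acod1* as follows. The summed level of 6 neutrophil markers was 2.00 to 16.6 CPM in controls and 7.68 to 765 CPM in mutant uteri, with the high value in replicate 5 and *Ly6g*, the 1 of 6 called, higher (log2 fold change 3.82, adjusted p = 0.0294, 2.50 without mutant replicate 5, lost without control replicate 2, 3, 4 or 5). The sum of 6 macrophage markers was 227 to 431 CPM and 307 to 1141 CPM, with 0 of 6 called by edgeR's quasi-likelihood test (3 at an unadjusted p under 0.05, 3 with DESeq2), and that of 8 myeloid activation genes was 6.75 to 10.7 CPM and 8.59 to 198 CPM, with *Tnf* (3.09, adjusted p = 0.0216, 1.86 without mutant replicate 5, lost without control replicate 2, 4 or 5) and *Ptgs2* (2.22, adjusted p = 0.0136) called higher of 8. Replicate 5 had the highest sum in each of these lists, and replicate 1, with the lowest *Acod1*, had 10.5 CPM, 307 CPM and 8.59 CPM. The part of these cells in the *Acod1* values was not tested. Of 8 genes around itaconate, from citrate synthase to succinate dehydrogenase and the NRF2 pair, 0 passed with edgeR's quasi-likelihood test or DESeq2, and 2 had an unadjusted p under 0.05. The largest log2 fold changes were 0.24 for *Slc25a1* (adjusted p = 0.14) and 0.23 for *Sdhb* (adjusted p = 0.0961). On the chromosome, *Kctd12* fell beside *Acod1* (log2 fold change -0.96, adjusted p = 0.0057) by the same test.

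*Fam83a* encodes a scaffold protein that binds casein kinase 1 and lies on chromosome 15 from 57985419 to 58011009 on the plus strand (ENSMUSG00000051225). Controls had 6.35, 13.2, 10.2, 8.51 and 6.09 CPM. In mutants they were 0.0784, 0.321, 0.589, 0.712 and 0.246 CPM, which were 5, 19, 36, 49 and 17 counts. Every mutant uterus lay below every control, for which this gene was chosen.

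*Abcb5* encodes a membrane transporter of the P-glycoprotein family and lies on chromosome 12 from 118867824 to 118966421 on the minus strand (ENSMUSG00000072791). Controls had 10.35, 14.1, 18.9, 5.62 and 8.23 CPM. Mutants had 1, 72, 69, 21 and 0 counts in replicates 1 to 5, or up to 1.22 CPM. Replicates 1 and 5 were at or next to 0, and 0 counts allow a level of up to 0.0434 CPM (3 counts, counting error only).

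As a description, *Fam83a* had a mean of 0.389 ± 0.258 CPM against 8.85 ± 2.93 CPM, or 4.395% of the control level, and a log2 fold change of -4.50 (SE 0.50, n = 5 each). *Abcb5* had 0.533 ± 0.597 CPM against 11.4 ± 5.20 CPM, or 4.66%, and a log2 fold change of -4.43 (SE 0.95, n = 5 each). In this contrast 4.51% of all tested genes passed as lower, and nothing is read from this, since the pair was chosen on that contrast. Relatives of the pair gave other values. Of 7 other FAM83 genes, *Fam83g* and *Fam83h* rose (log2 fold changes 1.10 and 0.77, adjusted p = 0.00492 and 0.0121, quasi-likelihood test) and none fell. Of 9 other ABCB transporters, *Abcb1a*, the blood-barrier P-glycoprotein, fell from 62.9 ± 9.69 to 27.2 ± 3.78 CPM (log2 fold change -1.21, adjusted p = 0.000681), and *Abcb10* rose by 0.40 (adjusted p = 0.0233, lost without control replicate 1, 2 or 3). Beside *Abcb1a*, 5 of 6 endothelial markers fell, with summed levels of 723 to 990.4 CPM in controls and 362 to 494 CPM in mutant uteri and none at 0, and their part was not tested. The neighbours of *Fam83a* and *Abcb5* did not pass, with log2 fold changes of 0.16 for *Tbc1d31*, 0.18 for *9130401M01Rik*, -0.22 for *Sp4* and -0.53 for *Itgb8*.

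**Figure D2:**
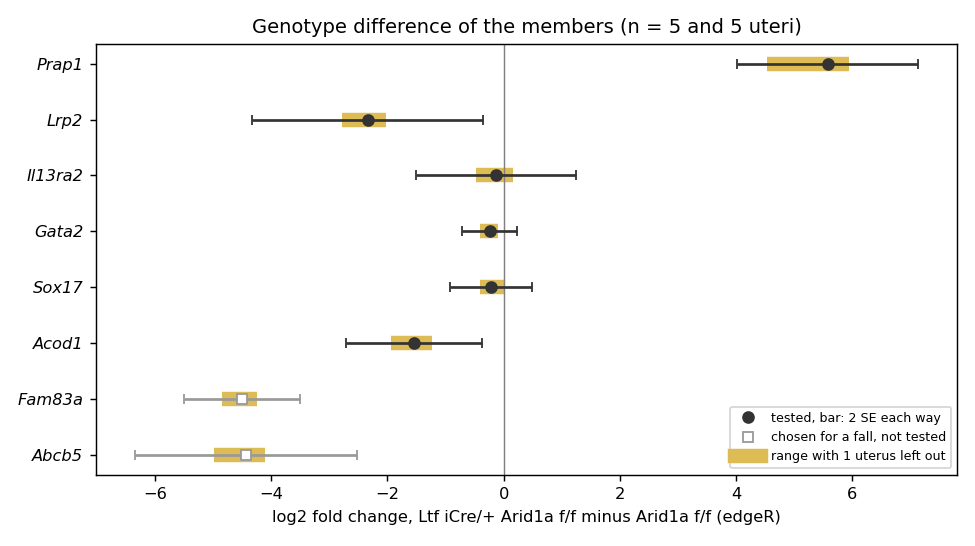
Log2 fold change of each member (mutant minus control, edgeR, 5 uteri each) with a bar of 2 SE each way and a yellow band for the range with 1 uterus left out. Of the tested members, the bars of Prap1, Lrp2 and Acod1 do not cross 0 and those of Il13ra2, Gata2 and Sox17 do. Fam83a and Abcb5 (open squares) were chosen for their fall.

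The uteri differed in how far the members were from controls. Among the 7 members that were lower on average, mutant replicates 1 and 5 were the lowest pair in 6, the exception being *Acod1*. The same pair was lowest in 36.5% of the 1133 genes that passed as lower and in 18.5% of all tested genes. These sets are unlike the members, of which 0 of 6 tested passed as lower. *Fam83a* and *Abcb5*, in the 7, were chosen for their fall, so no excess is read from these shares. Replicates 1 and 5 had the highest *Ltf*, the gene whose locus drives Cre and a classical estrogen target, at 383 and 2831 CPM against 23.6 to 290 CPM in the other mutant uteri and 2.22 to 11.7 CPM in controls. They also had the highest summed epithelial markers and the lowest summed gland markers, at 7.24 and 18.6 CPM against 27.7 to 48.1 CPM in the other mutant uteri and 65.4 to 114 CPM in controls. The gland genes *Prss28* and *Prss29* reached 0.601 CPM in control replicate 1 and at most 0.0976 CPM in any other uterus. Of 6 stromal markers, *Vim* (log2 fold change -0.94, adjusted p = 0.0139) and *Dcn* (-0.65, adjusted p = 0.0109) fell, and of 6 myometrial markers 0 passed with edgeR's quasi-likelihood test (1 at an unadjusted p under 0.05, 1 with DESeq2). The part of these differences in the members' values was not tested.

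**Figure D3:**
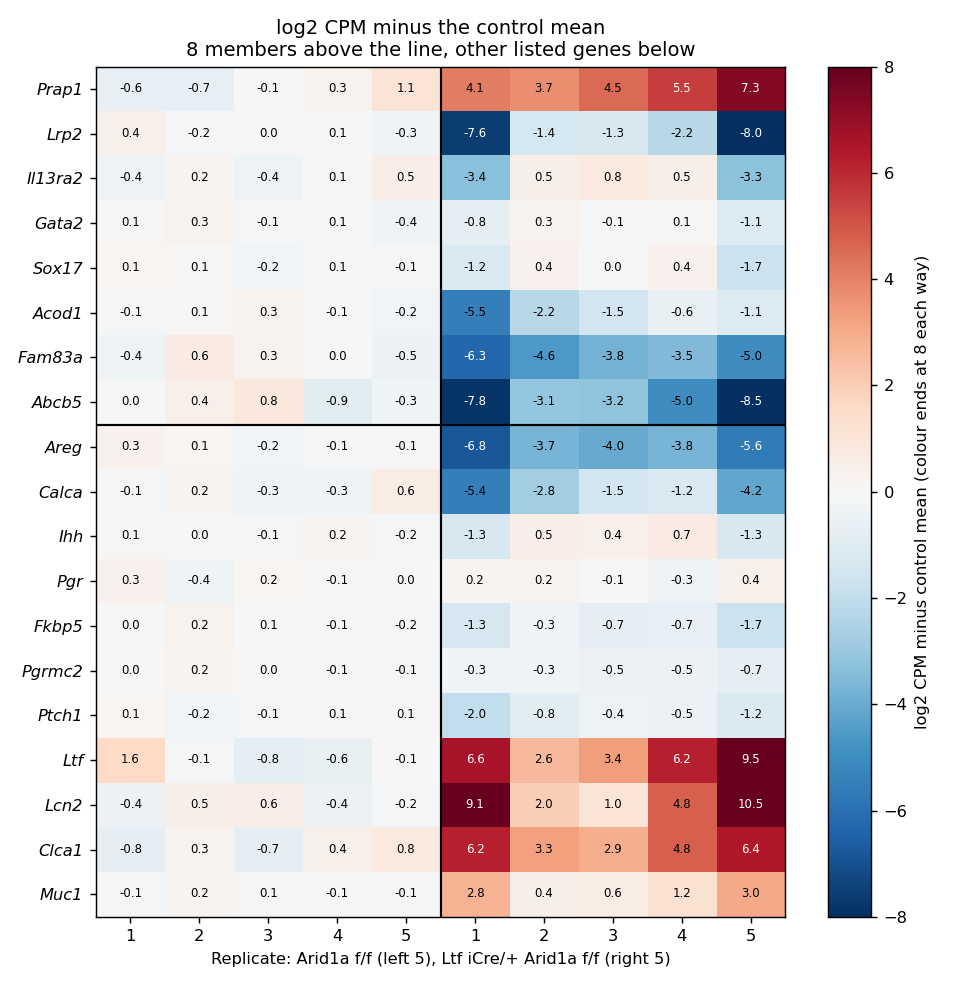
Log2 CPM minus the control mean in each uterus (columns, 5 controls then 5 mutants) for the 8 members above the line and for other listed progesterone and estrogen genes below it, with blue below and red above the control mean and the colour ending at 8 each way. Lrp2 and Abcb5 reach -8.02 and -8.46 in replicate 5, while Pgr stays near 0 in every uterus.

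Since epithelial markers were higher in mutant uteri, the members were also set against them, as log2 CPM minus the mean log2 CPM of the 12 markers. On this scale *Prap1* was higher by 4.40, *Lrp2* lower with a difference of -4.76 and *Acod1* lower with a difference of -2.82, each with all 5 mutant uteri outside the control range and p = 0.00794 by the two-sided exact permutation test. *Gata2* had a difference of -0.96 and *Sox17* one of -1.09, with 4 of 5 mutant uteri below every control and an exact permutation p of 0.0159 for each. With 1 control left out, the difference was -1.03 to -0.91 for *Gata2*, with p up to 0.0635, and -1.12 to -1.07 for *Sox17*, with p up to 0.167, by the same exact permutation test. *Il13ra2* had a difference of -1.63 (exact permutation p = 0.294). *Fam83a* and *Abcb5* had differences of -5.28 and -6.16, given without a test. The 6 tests are not adjusted for each other, and the higher level of the markers lowers every member on this scale.

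**Figure D4:**
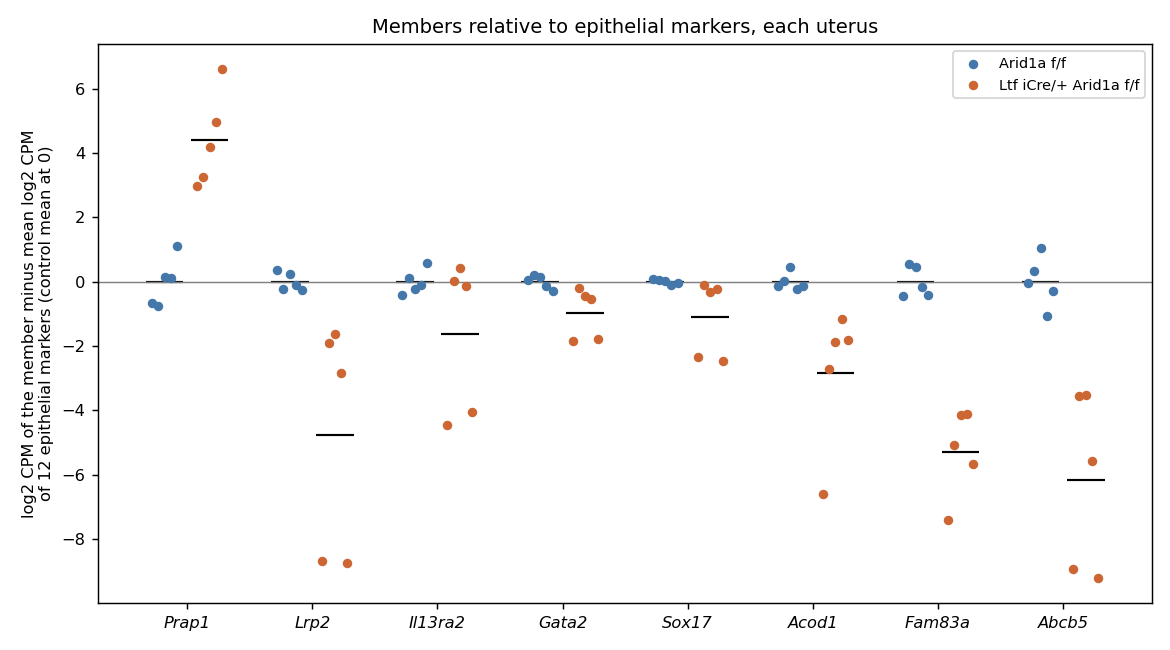
Log2 CPM of each member minus the mean log2 CPM of 12 epithelial markers, set to 0 at the control mean, in each control and mutant uterus, with a line at the mean. All 5 mutant uteri lie outside the control range for Prap1, Lrp2, Acod1, Fam83a and Abcb5, and 4 of 5 lie below it for Gata2 and Sox17.

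Levels of different genes were compared per kb of exons. In controls the order of mean CPM per kb was *Acod1* at 61.6 ± 7.66, *Gata2* at 51.3 ± 8.05, *Sox17* at 41.2 ± 4.11, *Lrp2* at 38.3 ± 7.46, *Il13ra2* at 19.0 ± 5.29, *Prap1* at 2.83 ± 1.54, *Fam83a* at 2.79 ± 0.925 and *Abcb5* at 2.61 ± 1.19 (SD, n = 5). The steps from *Lrp2* to *Il13ra2* and from *Il13ra2* to *Prap1* were larger than the spread, and the ranges of every other pair of neighbours in the order overlapped. Within each of the 5 control uteri, however, *Acod1* stood above *Gata2* and *Gata2* above *Sox17*. In mutant uteri *Prap1* came first, at 134.9 ± 160.0 CPM per kb, and *Fam83a* and *Abcb5* came last, at 0.123 ± 0.0813 and 0.122 ± 0.136 (SD, n = 5), with the ranges of all neighbours in the order overlapping. Within each of the 5 mutant uteri *Gata2* stood above *Sox17*, *Il13ra2* above *Lrp2* and *Lrp2* above *Fam83a*. By the means, *Prap1* moved from rank 6 to rank 1. It stood above *Fam83a*, the next gene, in only 2 of 5 control uteri, and above *Gata2* in 4 of 5 mutant uteri.

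**Figure D5:**
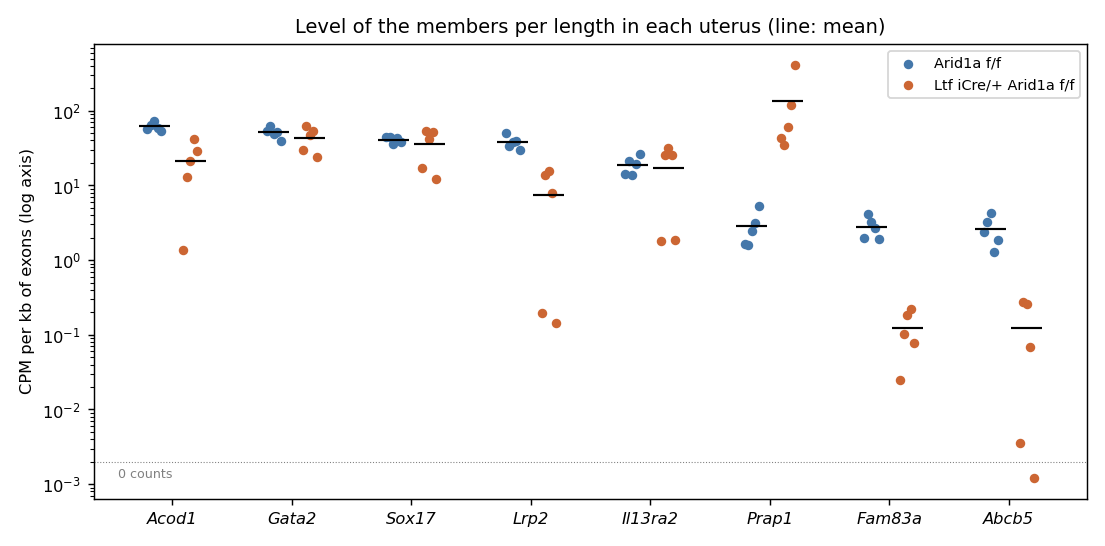
Level of the members in CPM per kb of exons (log axis) in each uterus, ordered by the control mean, with a line at the mean and 0 counts drawn below the dotted line. Prap1 goes from 2.83 to 134.9 CPM per kb, while Fam83a and Abcb5 go to 0.123 and 0.122.

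Other genes of the progesterone pathway varied in the same libraries. *Pgr* had 313.6 ± 57.9 CPM in controls and 338.5 ± 64.6 CPM in mutant uteri (SD, n = 5 each), for a log2 fold change of 0.11 (adjusted p = 0.722, quasi-likelihood test). Of 10 receptor and partner genes, 2 fell and 0 rose, where 4.51% of all tested genes passed as lower. Their median log2 fold change was -0.13, 5 had an unadjusted p under 0.05 and 3 passed with DESeq2. The 2 that fell were *Fkbp5*, a receptor chaperone and steroid-induced gene (-0.87, adjusted p = 0.0379), and *Pgrmc2*, a membrane-associated progesterone-binding protein (-0.46, adjusted p = 0.0188). *Fkbp5* passed in 2 of 10 fits that left out 1 uterus, and *Pgrmc2* in all 10.

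Of 8 other epithelial progesterone targets, 2 fell and 0 rose, with a median log2 fold change of -0.35. At an unadjusted p under 0.05 there were 3 genes, and with DESeq2 3. *Areg*, for the EGF-family ligand amphiregulin, had 10.6, 9.28, 7.07, 7.555 and 8.01 CPM in controls and 0.0470, 0.608, 0.491, 0.596 and 0.145 CPM in mutant uteri. Its genotypes did not overlap, and replicates 1 and 5 were the lowest uteri (log2 fold change -4.49, adjusted p = 0.00131, quasi-likelihood test). *Calca*, for calcitonin, fell from 5.54 ± 1.60 to 1.05 ± 0.974 CPM (log2 fold change -2.39, adjusted p = 0.0427) and passed in 3 of 10 fits that left out 1 uterus. *Cyp26a1*, for a retinoic acid hydroxylase, had a log2 fold change of 2.18 that missed the threshold (adjusted p = 0.0567, quasi-likelihood test), but it passed with DESeq2 (adjusted p = 0.00259) and in 2 of 10 fits that left out 1 uterus. Of 10 stromal relay genes, *Ptch1*, the hedgehog receptor and target, fell (log2 fold change -0.87, adjusted p = 0.0462) and passed in 3 of 10 such fits.

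Where 5.19% of all tested genes passed as higher, 4 of 8 estrogen-responsive epithelial genes rose and 0 fell (median log2 fold change 2.11). They were *Lcn2* (8.60, adjusted p = 0.0139), *Ltf* (7.23, adjusted p = 0.0092), *Clca1* (5.23, adjusted p = 0.00237) and *Muc1* (2.01, adjusted p = 0.0239, lost when any 1 control was left out) by edgeR's quasi-likelihood test. Without mutant replicate 5 the log2 fold change of *Lcn2* was 7.13 and that of *Ltf* 5.27, and without control replicate 1 that of *Ltf* was 7.88. *Lcn2* and *Ltf* were highest in mutant replicate 5, at 1659 and 2831 CPM, where summed neutrophil markers were 765 CPM. In mutant replicate 1 they were 635 and 383 CPM, with neutrophil markers at 10.5 CPM. The part of neutrophils in these values was not tested. Among luminal epithelial markers *Wnt7a* rose (1.64, adjusted p = 0.00554), and of 6 gland markers *Foxa2* fell (-1.13, adjusted p = 0.0057), all as log2 fold changes in the same test.

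The pattern of each member over the 10 uteri was compared with 14591 genes of at least 100 counts on average, by the root mean square (RMS) difference of log2 CPM deviations from the control mean. For *Prap1* the nearest were *Ceacam19* (RMS difference 0.94), *Apol7a* (0.99) and *Uox* (0.99), set against an own RMS deviation of 3.71. For *Lrp2* (own RMS 3.62) they were *Spink1* (0.50), *Pla2g10* (0.78) and *S100g* (0.85), all with replicates 1 and 5 far below the other uteri. For *Il13ra2* (own RMS 1.55) they were *Ggt6* (0.35), *Gulo* (0.38) and an unnamed gene, ENSMUSG00000102669 (0.38).

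*Acod1* (own RMS 1.98) had as nearest genes *9030622O22Rik* (RMS difference 0.55), *Gm43085* (0.60) and *Krt23* (0.69), in which replicate 1 was also the lowest. For *Fam83a* (own RMS 3.36) they were *Areg* (0.53), *Cyp3a59* (0.89) and *Sox2ot* (0.91). For *Abcb5* (own RMS 4.24) they were *Sox2ot*, *Areg* and, at 1.27, the member *Lrp2*. *Abcb5* was chosen for its fall in these same counts, so no link between these members is read from this. *Gata2* and *Sox17* varied too little for such a comparison (own RMS 0.45 and 0.70). Other neighbours on the chromosome that passed were *Amot* beside *Il13ra2* (log2 fold change -0.37, adjusted p = 0.0379), *Rpn1* beside *Gata2* (0.58, adjusted p = 0.0435) and *Mrpl15* beside *Sox17* (0.31, adjusted p = 0.0257), by edgeR's quasi-likelihood test. Leaving out 1 uterus at a time, they passed in 5, 3 and 6 of 10 fits.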

How the data were processed

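The authors trimmed the reads of each uterus with cutadapt 1.18 and Trim Galore 0.6.4, aligned them to GRCm38 with STAR 2.7.3a and deposited whole-number counts per gene without normalization. The annotation release and the strand setting of their counting are not given in the sources used here. Gene symbols, positions and exon lengths were taken from GENCODE M21, and promoters from RefSeq for GRCm38.p6.

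Genotypes were compared by the quasi-likelihood test of edgeR 4.0.16 in R 4.3.3, after TMM normalization and without covariates, in the 25146 genes whose counts averaged 1 or more over the libraries. P-values were adjusted over these genes by the Benjamini-Hochberg method (threshold 0.05). Standard errors belong to the same fit. Log2 CPM used a prior count of 2, and single members were also compared by a two-sided exact permutation test. Library sizes ranged from 59296537 to 72702411 counts, and the libraries of 1 genotype differed by at least 36.1 in chi-square per gene, so none was a duplicate. The study's own count test, DESeq2 (here 1.42.0), served as an alternative, as did other normalizations and filters, the replicate number as a block, a prior count of 0.5, *Epcam* as the only epithelial marker and the omission of each uterus.

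The members and 21 lists of other genes were chosen with earlier results of these data known, and no list was tested as a set. The text names all members, *Arid1a*, *Ltf*, *Pgr* and *Ihh*, in each list up to 3 called genes of at least 10 counts by absolute log2 fold change or, where none passed, the 2 of largest change, chromosomal neighbours that passed, and the 3 genes nearest in pattern (mean of at least 100 counts, members with a root mean square deviation of at least 1). Some genes that this rule picks are not reported here. Neighbours that did not pass, *Prss28*, *Prss29* and *Cyp26a1* were chosen for mention after their values were seen. The procedure was tested on simulated counts with 200 changed genes. The simulation gave both genotypes the same spread, unlike *Lrp2* (SD of log2 CPM 0.27 in controls, 3.39 in mutants) and *Acod1* (0.17 and 1.95). It therefore cannot tell how the procedure handles such members. Figures were drawn with matplotlib 3.10.9 in Python 3.11.15.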

Additional observations from a re-analysis of the deposited data

Results flagged for a closer look

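In mutant replicate 5, *Prap1* stood at 257.0 CPM, separated from the other 4 uteri of its genotype by more than the Dixon limit for 5 samples (0.71 of the range). *Ltf* stood apart in the same uterus, at 2831 CPM. Among controls, *Ltf* stood apart in replicate 1, at 11.7 CPM. These were 3 of 20 groups of uteri screened. The limit marks about 1 in 20 groups by chance where values are normally distributed. The screen used CPM and not log2 CPM, and CPM values are skewed, so no excess over chance is read from this. Without mutant replicate 5 the log2 fold change of *Prap1* was 4.52 (adjusted p = 0.000597, edgeR's quasi-likelihood test).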

How the results depend on the processing

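The direction of *Prap1*, *Lrp2*, *Gata2*, *Acod1*, *Fam83a* and *Abcb5* was the same under every alternative run. Leaving out 1 uterus gave log2 fold changes of 4.52 to 5.93 for *Prap1*, -2.78 to -2.02 for *Lrp2*, -0.48 to 0.16 for *Il13ra2*, -0.41 to -0.09 for *Gata2*, -0.41 to 0.0018 for *Sox17*, -1.93 to -1.24 for *Acod1*, -4.84 to -4.24 for *Fam83a* and -4.99 to -4.11 for *Abcb5*. The sign turned for *Il13ra2* without control replicate 5 (0.0068), without mutant replicate 1 (0.15) and without replicate 5 (0.16), and for *Sox17* without mutant replicate 5 (0.0018). *Acod1* passed the threshold without mutant replicate 1 (-1.24, adjusted p = 0.0237). Relative to the epithelial markers, leaving out 1 uterus gave -1.15 to -0.74 for *Gata2* and -1.34 to -0.75 for *Sox17*, and the exact permutation p missed 0.05 for *Gata2* without control replicate 1, 2, 3 or 4 and for *Sox17* without any 1 control.

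Over the 153 genes of the lists, 21 passed as higher and 18 as lower, with 12 to 25 and 14 to 20 when 1 uterus was left out, the fewest higher ones without control replicate 2 (12) or 3 (13). DESeq2 called 27 higher and 28 lower. Over all genes DESeq2 called 4103 against 2438 with edgeR, and leaving out control replicate 2, 3 or 4 left 1204, 1248 and 1414. Deviations of same-numbered uteri of the genotypes correlated weakly, at -0.095 to 0.166, against -0.253 to 0.143 for uteri of different numbers. The highest value, 0.166, was that of replicate 5 and lay above the limit of 0.1 set for pairing. The labels name no pairs, and the numbers are read only as names of the uteri. With the replicate number as a block, 1704 genes passed, *Prap1* had a log2 fold change of 5.09 (adjusted p = 0.00109), *Lrp2* one of -3.63 (adjusted p = 0.153), and the block changed no call of a member. Counts were high for most members, so counting error was small beside the spread between uteri, except for *Fam83a* and *Abcb5* in mutant uteri (0 to 72 counts).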
